A study of Homo sapiens with 32 samples.

Results

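A set of 10 transcription factor genes that direct the formation of the pancreas and the identity of its cells was examined for binding of HNF4α: PDX1, NKX6-1, NKX2-2, PTF1A, ONECUT1, ONECUT2, NEUROD1, RFX6, MNX1 and PROX1. In each of 18 peak lists from chromatin immunoprecipitation sequencing (ChIP-seq), a peak was assigned to one of these genes when its summit fell no more than 50 kb outside the RefSeq span of that gene on GRCh38. This gave 118 peaks, which merge into 30 sites out of 78729 regions in the whole series, near 9 of the 10 genes. The 10 genes are among 20037 protein-coding genes to which the same rule was applied.

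The lists come from 3 pancreatic ductal adenocarcinoma cell lines, each grown as a flat culture. The nuclear receptor HNF4α has alternative promoters, called P1 and P2, whose isoforms differ at the N-terminus. In Panc10.05 and BxPC3, doxycycline induced a P1 isoform (genotype P1-α2) or a P2 isoform (genotype P2-α8). Panc10.05 P1-α2 cells received a dose of 25 ng/mL but P2-α8 cells one of 12.5 ng/mL, so isoform and dose change together in that line. The BxPC3 dose was 500 ng/mL for either isoform. In AsPC1, CRISPR interference (a guide RNA that brings a repressor to DNA) was aimed at P1 (sgP1) or P2 (sgP2), with a control guide (sgNC). All of these were profiled with an antibody that recognises every HNF4α isoform (pan-HNF4α), giving 14 lists, and sgP2 and sgNC cells also with an antibody to the P1 isoforms, giving 4 lists. Each of the 9 groups had 2 lists. The titles of the BxPC3 P2-α8 libraries read P1-a8 while their genotype label reads P2-a8, and the genotype label was followed. The labels name no separate cultures, so the tests measure the spread between these libraries, which may be technical. An uninduced list and HNF4α protein levels were not analysed here, and peak lists hold no expression by which the lines or the induction could be checked.

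HNF4α binds DNA as a homodimer at a motif with the letters CAAAG at its core, and it is a regulator of liver, gut and pancreatic cells. In the embryo PDX1 and PTF1A mark the early pancreatic bud, MNX1 is needed for its dorsal part, and ONECUT1 (also called HNF6) acts in progenitors upstream of the endocrine programme. NKX6-1, NKX2-2, NEUROD1 and RFX6 act in endocrine cells and their precursors, while PTF1A later drives the digestive-enzyme programme of acinar cells. PROX1 is a homeobox factor of the liver and pancreas primordia and of lymphatic vessels.

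The RefSeq promoter table (GRCh38.p14) held 8 promoters of 6 of the 10 genes, namely NEUROD1, NKX6-1, MNX1, ONECUT1, ONECUT2 and NKX2-2. None of the 8 carried an HNF4α peak in any of the 18 lists, counting the 250 bases before the transcript start. How many promoters of all genes carry a peak is not given here, so this is not read as particular to these genes. The nearest summit lay between 5.71 kb (the second MNX1 promoter) and 62.1 kb (NEUROD1) from the transcript start. The ONECUT2 and NKX6-1 windows are shown because they were the ones with the core of the HNF4 motif, a choice made after the search. They lie at chr18:57435124-57435373 on the plus strand and at chr4:84499293-84499542 on the minus strand, and capitals mark the core.
ONECUT2: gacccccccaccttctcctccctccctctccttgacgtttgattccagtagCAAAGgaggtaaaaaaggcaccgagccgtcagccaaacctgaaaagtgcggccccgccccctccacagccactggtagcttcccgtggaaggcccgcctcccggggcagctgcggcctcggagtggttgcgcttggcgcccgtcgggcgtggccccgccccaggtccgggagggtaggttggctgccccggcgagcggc
NKX6-1: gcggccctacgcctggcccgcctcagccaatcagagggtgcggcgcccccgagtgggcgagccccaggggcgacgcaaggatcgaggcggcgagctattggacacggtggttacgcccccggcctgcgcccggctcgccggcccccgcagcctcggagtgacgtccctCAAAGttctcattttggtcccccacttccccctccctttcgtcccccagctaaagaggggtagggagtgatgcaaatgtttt
The core CAAAG, read on both strands as CAAAG or CTTTG, occurred once in each of these windows, and 42.1% of 35116 promoters of the same length hold it. The longer motifs CAAAGTCCA, CAAAGTTCA and CAAAGGTCA, each of which contains the core, were found in 0 of the 8 promoters, and 0.911% of all promoters hold at least one of them. The bound sites described next lie outside these windows, and their sequences were not read here.

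The lists differed in length, and with it in how many peaks any locus could hold. Panc10.05 lists had 24828 to 39111 peaks, BxPC3 P1-α2 lists 33737 and 41808, BxPC3 P2-α8 lists 12681 and 14666, AsPC1 pan-HNF4α lists 11686 to 24295 and P1-antibody lists 260 to 5200. The weakest peak had a −log10 q just above 8 in the induced lists of Panc10.05 and BxPC3 and just above 2 in the AsPC1 lists, so an AsPC1 peak could be weaker and still be listed. Read depth is unknown, and each line has a sequencing series of its own in the library names, so line and series cannot be told apart. Peak strength is given below as the authors' fold enrichment or as its percentile within its own list, where 100 is the strongest peak. Percentiles of lists of different length do not measure a change.

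PDX1 with 43 and ONECUT2 with 29 of the 118 peaks held most of the binding. In Panc10.05, 10 and 11 peaks lay near the 10 genes in the P1-α2 lists, and 11 and 10 in the P2-α8 lists. In BxPC3 the P1-α2 lists held 16 and 13 and the P2-α8 lists 4 and 7. In AsPC1 with the pan-HNF4α antibody, sgNC lists held 12 and 3, sgP1 lists 5 and 4, and sgP2 lists 4 and 5. The P1 antibody gave 2 and 1 peaks in sgP2 cells and 0 and 0 in sgNC cells. The sgNC lists thus stood farthest apart within a group, with replicate 1 holding the longer list. NKX6-1, NKX2-2, ONECUT1, PTF1A, RFX6 and PROX1, 6 of the 10 genes, had a peak in at least 1 induced list and in no AsPC1 list, beside 17.5% of all protein-coding genes. MNX1 alone had peaks in AsPC1 lists and none in the induced lists (1.48% of all genes), and NEUROD1 had none in any list (5.84% of all genes). These rules were chosen after the values were seen and carry no test.

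**Figure D1:**
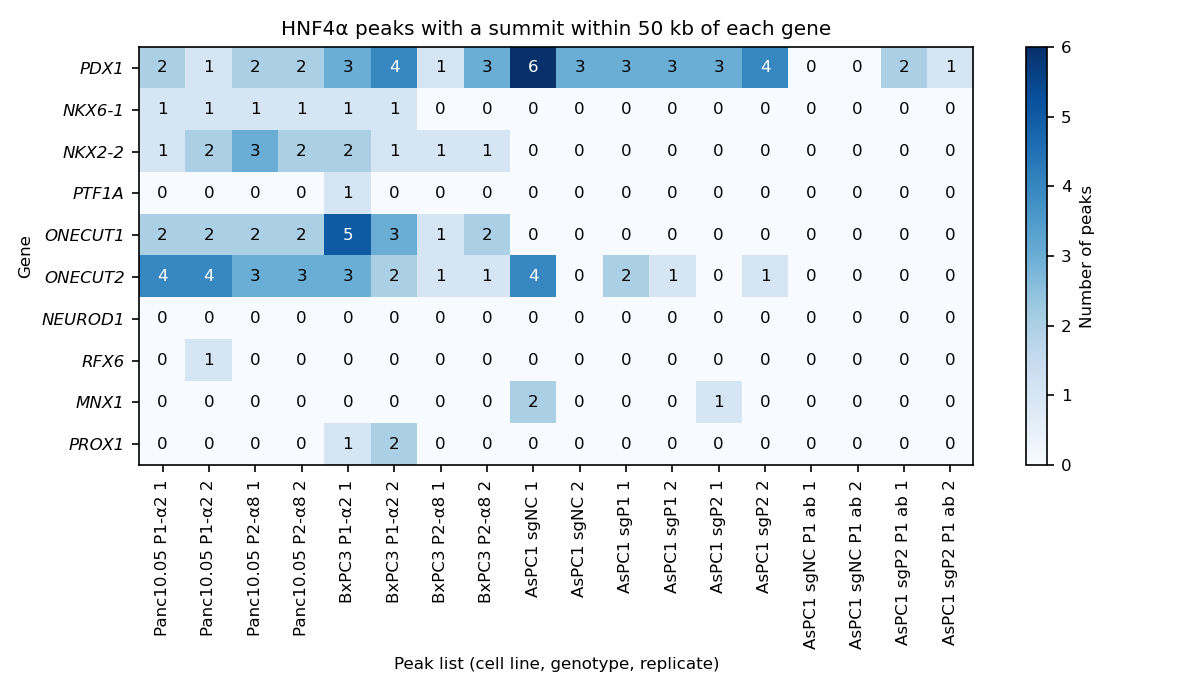
Number of HNF4α peaks with a summit within 50 kb of each of the 10 genes (vertical axis) in each of the 18 peak lists (horizontal axis; ab, antibody; lists without that mark used the pan-HNF4α antibody). The PDX1 row is filled in all 14 pan-HNF4α lists, and the NEUROD1 row holds 0 throughout.

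In each of the 9 groups the share of the 10 genes with a peak was numerically below that of protein-coding genes at large, a description that carries no test. The groups share the same genes and several share a line, so they are not independent. A set of 10 genes cannot resolve small gaps, such as 4 genes against 45.4% or 0 against 2.31%. Both Panc10.05 P1-α2 lists had a peak near 5 of the 10 genes (PDX1, NKX6-1, NKX2-2, ONECUT1 and ONECUT2), against 74.5% of all protein-coding genes. The same 5 genes had a peak in both Panc10.05 P2-α8 lists, against 79.5% of all genes. In BxPC3, PROX1 joined them for P1-α2, giving 6 genes against 76.6% of all genes. NKX6-1 and PROX1 were absent for P2-α8, which left 4 genes against 45.4%. In AsPC1 with the pan-HNF4α antibody, sgP1 lists shared peaks near PDX1 and ONECUT2, 2 genes against 50.6% of all genes. The sgP2 lists shared a peak near PDX1 only, 1 gene against 52%, and so did the sgNC lists, 1 gene against 58.5%. With the P1 antibody, PDX1 was the single gene in both sgP2 lists (23.7% of all genes) and no member was in both sgNC lists (2.31% of all genes). The 10 genes have 0 to 1 other protein-coding genes within 50 kb (median 1), against a median of 2 (0 to 29) for all genes, and a median span of 11.9 kb against 24.1 kb. The part of this in the counts was not tested.

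**Figure D2:**
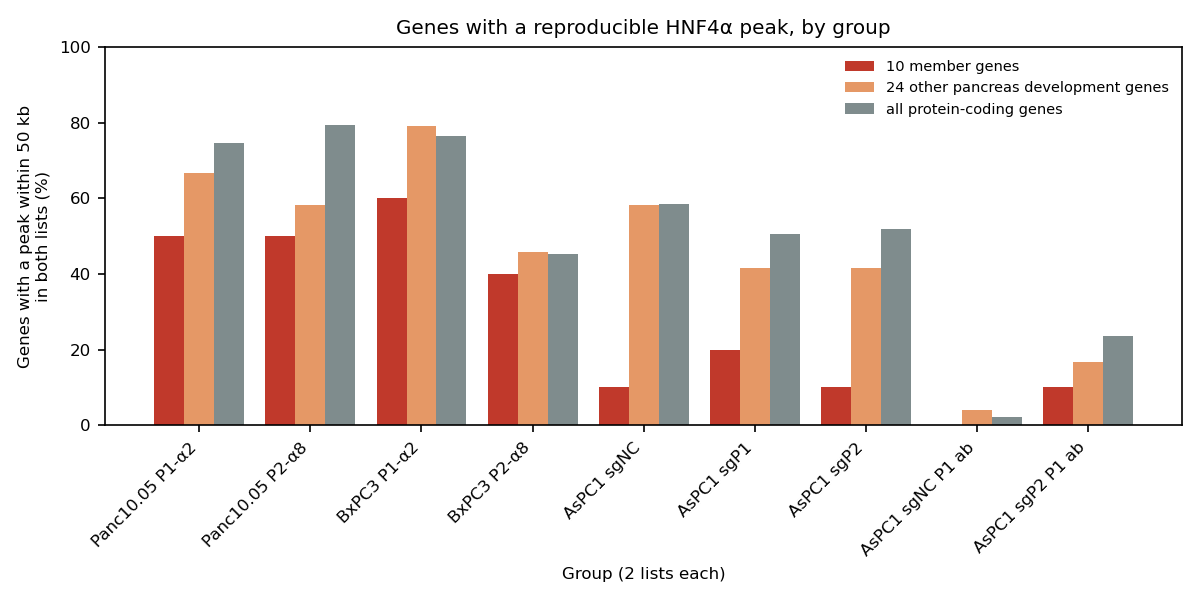
Percentage of genes (vertical axis) with a peak within 50 kb in both lists of a group, for the 10 genes, for 24 other pancreas development genes and for all protein-coding genes, in each of the 9 groups (horizontal axis; ab, antibody; groups without that mark used the pan-HNF4α antibody). The bar of the 10 genes is below that of all protein-coding genes in every group.

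A further 24 genes of pancreas development gave a comparison group. Of these, 16 and 14 had a peak in both lists of Panc10.05 P1-α2 and P2-α8, 19 and 11 in BxPC3 P1-α2 and P2-α8, and 10, 10 and 14 in AsPC1 sgP1, sgP2 and sgNC with the pan-HNF4α antibody. With the P1 antibody the counts were 4 in sgP2 and 1 in sgNC. In the order above, the induced groups held 66.7%, 58.3%, 79.2% and 45.8% of the 24. The shares of all genes were 74.5%, 79.5%, 76.6% and 45.4%. In AsPC1 they were 41.7%, 41.7% and 58.3%, against 50.6%, 52% and 58.5% of all genes. With the P1 antibody they were 16.7% and 4.17%, against 23.7% and 2.31%. BHLHA15, an acinar cell factor also called MIST1, had a peak in both lists of all 9 groups. RBPJL, the partner of PTF1A in acinar cells, and GATA6, a factor of the early pancreas, had one in both lists of 8 groups. BHLHA15, RBPJL and GATA6 were named after their values were seen. The share of all genes with a peak in that many groups is not given here. HNF4A itself, the gene whose promoters the guides address, had 5 and 2 peaks within 50 kb in sgNC, 2 and 2 in sgP1, and 0 and 2 in sgP2.

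Of the 30 sites, 10 were in a single list, 17 in lists of the induced lines only, 8 in AsPC1 lists only and 5 in both. No site was in all 14 pan-HNF4α lists. The shares of all regions that meet these rules are not given here, so the counts are not read as particular to these genes. Only 2 sites lay inside the span of their gene, both in ONECUT2, and 11 lay within 10 kb of it. For 18 sites the gene was the nearest protein-coding gene and for 12 it was another, so nearness to a named factor does not assign the site to it. Closest to the 50 kb limit on the inside was a peak 45.7 kb from ONECUT1 in BxPC3 P2-α8 replicate 2, and on the outside one 55.8 kb from ONECUT2 in BxPC3 P1-α2 replicate 2.

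**Figure D3:**
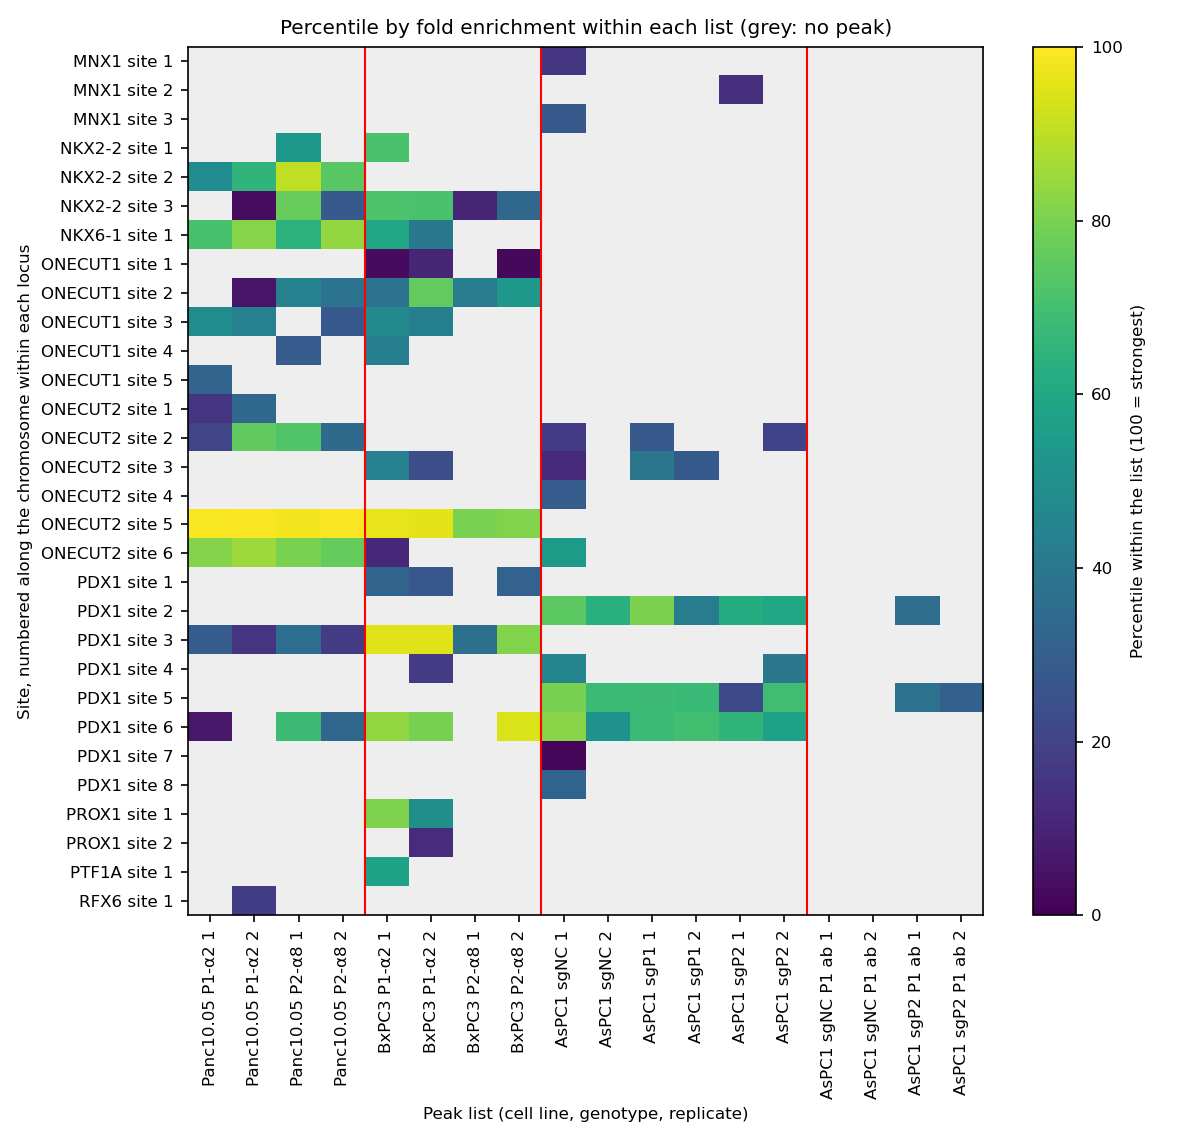
Percentile by fold enrichment of each of the 30 sites (vertical axis, numbered along the chromosome within each gene's neighbourhood) in each of the 18 lists (horizontal axis; ab, antibody; lists without that mark used the pan-HNF4α antibody), with grey where the list has no peak; red lines separate Panc10.05, BxPC3, AsPC1 pan-HNF4α and AsPC1 P1-antibody lists. ONECUT2 site 5 is filled in the 8 induced lists and PDX1 sites 2 and 5 in the 6 AsPC1 pan-HNF4α lists.

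The PDX1 neighbourhood was bound in every pan-HNF4α list. Its sites 2 and 5 were called in AsPC1 lists only and its sites 1 and 3 in induced lists only, while sites 4 and 6 were called in both. Site 2, at chr13:27917216-27918367, lies 2.4 kb from the lower end of the PDX1 span and outside any annotated gene. Its fold enrichment in AsPC1 was 12.1 and 6.2 in sgP1, 8.42 and 7.95 in sgP2, and 10.9 and 8.33 in sgNC. Those folds stood at percentiles 42.5 to 80.4 of their lists, and the genotypes overlapped. It had no peak in any of the 8 induced lists. All 6 AsPC1 peaks had a −log10 q of at least 8, so they also met the threshold of the induced lists.

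PDX1 site 3, at chr13:27933018-27933736 and 7.0 kb beyond the other end of the gene, was the reverse. It had a peak in all 8 induced lists and in no AsPC1 list. Its fold was 27.9 and 22.4 in BxPC3 P1-α2, 9.04 and 11.6 in BxPC3 P2-α8, 10.5 and 9.26 in Panc10.05 P1-α2, and 10.6 and 8.14 in Panc10.05 P2-α8. Its percentiles were 95.2 and 95.1 in BxPC3 P1-α2, 37 and 81.2 in BxPC3 P2-α8, and 15.2 to 36.2 in Panc10.05. When every induced list was held to its 12681 strongest peaks, site 3 was retained in the 4 BxPC3 lists and in 0 of the 4 Panc10.05 lists. Summits within a line lay within 85 bases of each other in Panc10.05 and within 83 in BxPC3.

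Farther out, the peaks around PDX1 approach CDX2, a homeobox gene of intestinal epithelium. Site 5, at chr13:27952775-27954086, lies 26.8 kb from PDX1 and 7.8 kb from CDX2. It was in all 6 AsPC1 pan-HNF4α lists, with folds of 9.14 and 8.84 in sgP1, 5.05 and 9.42 in sgP2, and 12.5 and 9.03 in sgNC, but it was not called in the induced lines. Site 6, at chr13:27960351-27961209, lies 34.6 kb from PDX1 at the edge of CDX2. It was the most widely shared of the 30 sites, in 12 of the 14 pan-HNF4α lists. Its fold ran from 6.97 to 13.7 in AsPC1, was 19, 14.6 and 15.6 in 3 BxPC3 lists, and was 7.62, 15.7 and 9.68 in 3 Panc10.05 lists. It was missing from Panc10.05 P1-α2 replicate 2 and BxPC3 P2-α8 replicate 1, and its percentile reached 94.5 in BxPC3 P2-α8 replicate 2. The remaining PDX1 sites were seldom called. Site 1, inside the long non-coding RNA gene PLUT and 12.7 kb from PDX1, was in 3 BxPC3 lists (percentiles 27.1 to 32.3), site 4 in 3 lists, and sites 7 and 8 in sgNC replicate 1 alone.

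**Figure D4:**
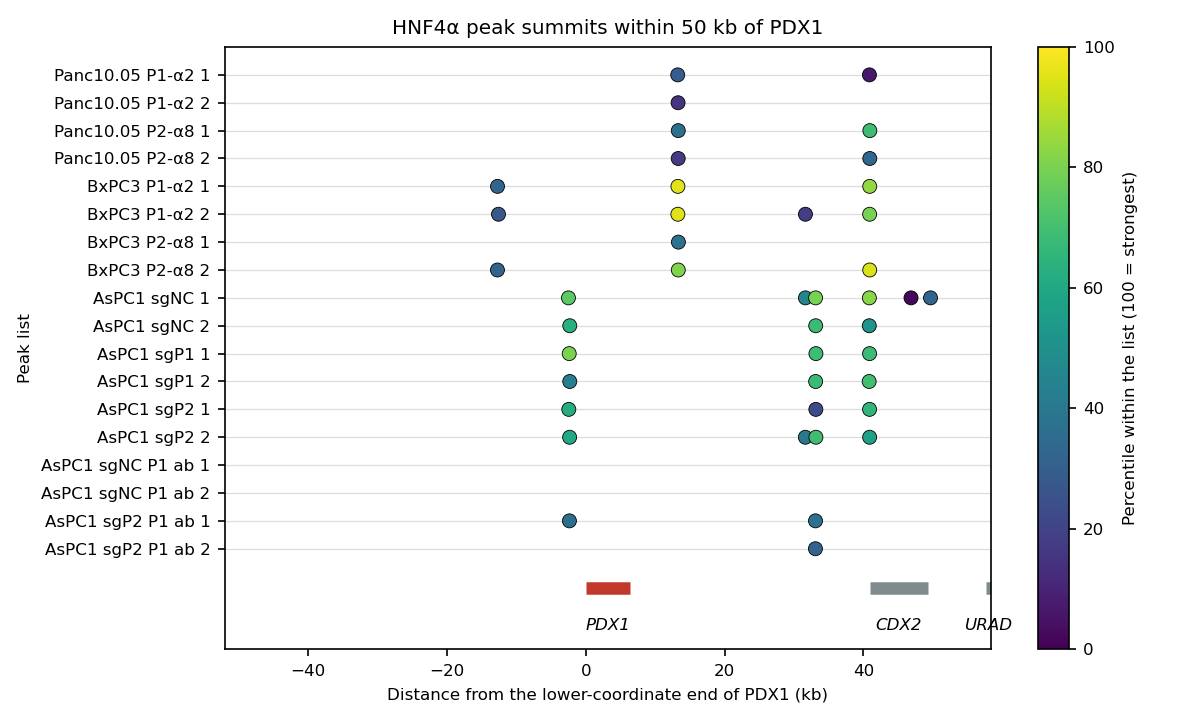
Peak summits within 50 kb of PDX1 in the 18 lists (vertical axis; ab, antibody; lists without that mark used the pan-HNF4α antibody) by distance in kb from the lower-coordinate end of PDX1 (horizontal axis); colour gives the percentile within the list and bars under the lists give protein-coding gene spans. The 6 AsPC1 pan-HNF4α lists share summits at PDX1 sites 2, 5 and 6, and the 8 induced lists share the summit at site 3.

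Near ONECUT2, a paralogue of ONECUT1, lay the strongest site of the set. Site 5, at chr18:57519493-57520287, is 28.6 kb beyond ONECUT2 and 24.5 kb from FECH, which encodes the last enzyme of haem synthesis and is the nearer gene. In Panc10.05 its fold was 64 and 91.4 with P1-α2 and 40.4 and 48.1 with P2-α8, and in BxPC3 it was 29.7 and 23.5 with P1-α2 and 13.6 and 11.6 with P2-α8. These values put it at percentiles 98.2 to 99.5 of the Panc10.05 lists, 96.2 and 95.9 of the BxPC3 P1-α2 lists, and 79.8 and 81.2 of the BxPC3 P2-α8 lists. The P1-α2 folds were above the P2-α8 folds in both lines, but folds of separate lists share no common scale. The highest fold of any peak was also larger in the P1-α2 lists. It was 274 and 419 against 142 and 178 in Panc10.05, and 104 and 88.6 against 53.2 and 53 in BxPC3. In Panc10.05 the percentiles of site 5 overlapped, 99.1 and 99.5 with P1-α2 and 98.2 and 99.5 with P2-α8. The 8 summits fell within 12 bases of each other in Panc10.05 and within 20 in BxPC3. The site was called in no AsPC1 list, and it stayed in all 8 induced lists under each cut on q or list length that was run.

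The other ONECUT2 sites were more restricted. Site 2, at chr18:57427491-57428090 and 7.6 kb before the gene, had folds of 9.59 and 22.9 in Panc10.05 P1-α2 and of 16.7 and 9.83 in P2-α8. It was absent from BxPC3 and appeared weakly in 3 AsPC1 lists (fold 4.49 to 5.3). Site 3, at chr18:57443707-57444290 inside ONECUT2, was in both BxPC3 P1-α2 lists (fold 10.7 and 7.88), in both sgP1 lists (6.06 and 5.3) and in sgNC replicate 1 (4.15), and in no sgP2 list. Site 6, at chr18:57533795-57535022 and 9.7 kb from FECH, had folds of 23.2 and 29.9 in Panc10.05 P1-α2 and of 19.2 and 16.6 in P2-α8. Its summits in BxPC3 P1-α2 replicate 1 and sgNC replicate 1, at positions 57534112 and 57534174, were apart from those in Panc10.05, at 57534619 to 57534743, and the site joins them because the peaks overlap. Site 1, at chr18:57396905-57397274, was in both Panc10.05 P1-α2 lists only (fold 8.89 and 11.8) and is nearest to ST8SIA3, a sialyltransferase gene. Site 4, inside the gene, was in sgNC replicate 1 alone.

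**Figure D5:**
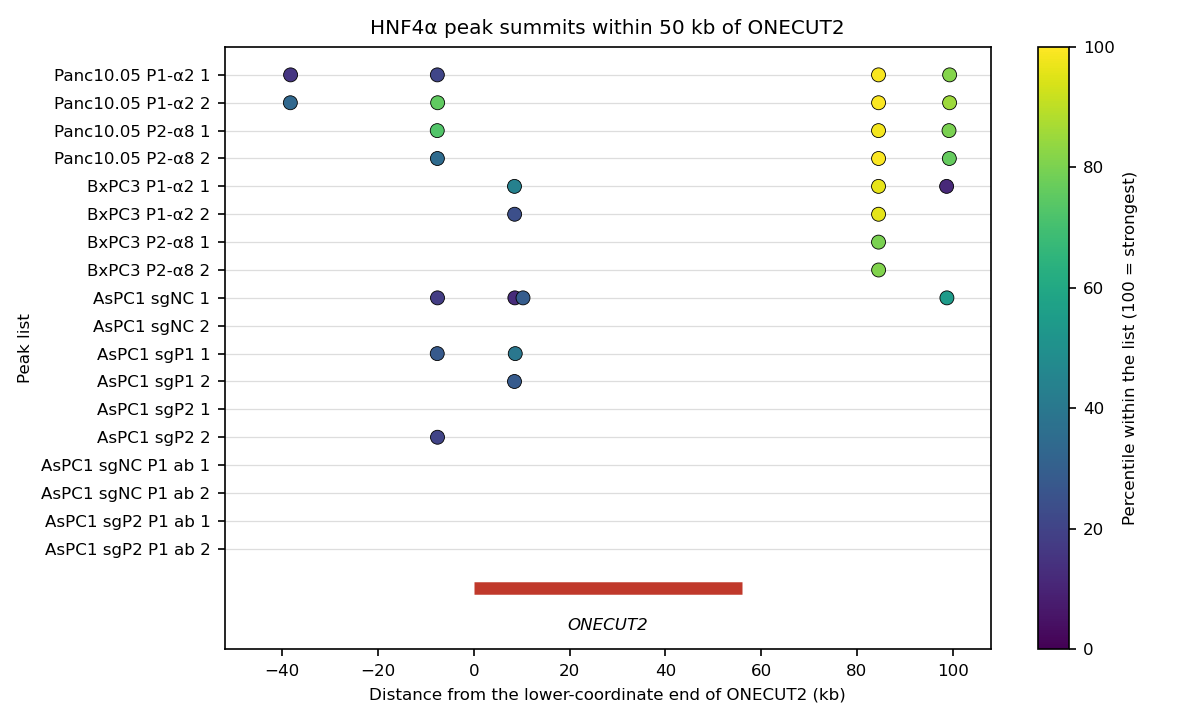
Peak summits within 50 kb of ONECUT2 in the 18 lists (vertical axis; ab, antibody; lists without that mark used the pan-HNF4α antibody) by distance in kb from the lower-coordinate end of ONECUT2 (horizontal axis); colour gives the percentile within the list and the bar under the lists gives the ONECUT2 span. The 8 induced lists share the summit of site 5, and no AsPC1 list has it.

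ONECUT1 had 5 sites, all on the lower-coordinate side of the gene and none called in AsPC1. Site 2, at chr15:52711184-52712444, lies 42.9 kb from ONECUT1 and 2.3 kb from ATOSA. It was in 7 of the 8 induced lists, at percentile 5.53 in Panc10.05 P1-α2 replicate 2, 44.2 and 38.2 in P2-α8, 37.9 and 76 in BxPC3 P1-α2, and 42.2 and 53.4 in P2-α8. It was missing from Panc10.05 P1-α2 replicate 1. Site 3, at chr15:52717987-52718958 and 36.3 kb from the gene, had folds of 13.1 and 13.4 in Panc10.05 P1-α2, 9.15 in P2-α8 replicate 2, and 11.2 and 9.53 in BxPC3 P1-α2, and it had no peak in BxPC3 P2-α8. Sites 4 and 5, 17.1 kb and 8.6 kb from the gene, were in 2 lists and 1 list, and site 1, inside ATOSA, was in 3 BxPC3 lists at percentiles 2.1 to 10.6.

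NKX2-2 and NKX6-1, the 2 NK-class homeobox factors of endocrine cells, were bound at a distance and only in the induced lines. NKX2-2 site 3, at chr20:21564227-21564892 and 41.9 kb from the gene, was in 7 of the 8 induced lists. Its fold was 15.3 and 12.9 in BxPC3 P1-α2, 6.8 and 7.57 in BxPC3 P2-α8, 18 and 9.16 in Panc10.05 P2-α8, and 7 in Panc10.05 P1-α2 replicate 2. NKX2-2 site 2, at chr20:21546354-21546916 and 23.9 kb from the gene, was in the 4 Panc10.05 lists, with folds of 13.1 and 18.6 for P1-α2 and 25.1 and 16 for P2-α8, and in no BxPC3 list. Its 4 summits lay within 21 bases. NKX2-2 site 1, 12.1 kb from the gene, was in 1 list of each induced line. The single NKX6-1 site, at chr4:84531737-84532270, lies 32.7 kb from the gene inside the uncharacterised gene LOC102723338. Its fold was 18.5 and 27.2 in Panc10.05 P1-α2, 14.6 and 19.3 in P2-α8, and 12.8 and 9.24 in BxPC3 P1-α2, and it was not called in BxPC3 P2-α8.

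Binding near the other 5 genes was sparse. PROX1 had a site inside PROX1-AS1, its antisense gene, 41.8 kb from PROX1 at chr1:213941061-213941558, at percentiles 80.5 and 49.7 in the BxPC3 P1-α2 lists and with no peak elsewhere. A second PROX1 site, 9.2 kb from the gene, was in BxPC3 P1-α2 replicate 2 alone. PTF1A had 1 peak, at chr10:23186559-23186947 and 5.5 kb from the gene, in BxPC3 P1-α2 replicate 1 (fold 12.6), and the other replicate lacked it. RFX6 had 1 peak, at chr6:116851183-116851478, 25.9 kb away in Panc10.05 P1-α2 replicate 2 (fold 9.7), and its nearest gene is GPRC6A, which encodes a receptor. MNX1 had 3 sites within 4.8 kb of its span, and the closest, at chr7:157003635-157003940 and 1.1 kb away, was in sgNC replicate 1 only (fold 5.11). Another of them was in the same list and the third in sgP2 replicate 1, and each of the 3 had a −log10 q under 8, so none would have been listed at the threshold of the induced lines. Of these 5 genes, only PROX1 had a site in both lists of a group. For NEUROD1 the nearest summit in any list was 62.1 kb from the gene, in sgNC replicate 1.

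The 2 induced isoforms gave the same number of peaks near these genes in Panc10.05, 10.5 ± 0.707 for each (mean ± SD, n = 2 lists; difference 0, two-sided exact permutation p = 1). Of 15 sites, ONECUT2 site 1 alone was in both P1-α2 lists and neither P2-α8 list, beside 3.63% of all regions of these lists. The opposite rule was met by 0 of 15 sites, beside 10.9% of all regions.

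In BxPC3 the P1-α2 lists held more of these peaks, 14.5 ± 2.12 against 5.5 ± 2.12 (n = 2 lists each), and the groups did not overlap. The difference of 9 peaks had an exact permutation p of 0.333, the smallest that 2 lists against 2 can give, so no difference could pass 0.05. The P1-α2 lists were also the longer ones, and at 12681 peaks per list the difference was 0.5 peaks (p = 1 by the same exact test). Of 17 sites, 4 were in both P1-α2 lists and neither P2-α8 list, beside 28.3% of all regions. They were NKX6-1 site 1, ONECUT1 site 3, ONECUT2 site 3 and PROX1 site 1. At equal length there were 0, but the share of all regions at that length is not given here. The fall is therefore not read as particular to these genes. The opposite rule was met by 0 sites and by 0.13% of all regions. The isoform difference of Panc10.05 minus that of BxPC3 was −9 peaks (exact permutation p = 0.278 over 36 labellings within lines).

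Between the induced lines the number of peaks near these genes was 10.5 ± 0.577 in Panc10.05 and 10 ± 5.48 in BxPC3 (n = 4 lists each, difference 0.5, exact permutation p = 0.886, smallest possible 0.0286). Without BxPC3 P2-α8 replicate 1 the difference was −1.5, and without replicate 2 it was −0.5. None of the 10 genes was bound in all 4 Panc10.05 lists and in no BxPC3 list (2.48% of all genes), nor the other way round (0.609%). By site, however, NKX2-2 site 2 and ONECUT2 site 2 were in the 4 Panc10.05 lists and in no BxPC3 list, 2 of 22 sites beside 5.54% of all regions. The reverse held for 0 sites, beside 2.09% of all regions.

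AsPC1 cells, in which no induction of HNF4α is labelled, differed from both induced lines in which sites were called. PDX1 sites 2 and 5 were in the 6 AsPC1 lists of this antibody but in 0 of the 8 induced lists, 2 of 30 sites beside 1.19% of all regions. PDX1 site 3 and ONECUT2 site 5 were in all 8 induced lists and in none of the 6, again 2 of 30 beside 2.45%. These site rules between lines were chosen after the values were seen and carry no test. Line, sequencing series and the source of HNF4α cannot be told apart in them.

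Peak numbers under either guide lay inside the range of the sgNC lists. The numbers of peaks were 4.5 ± 0.707 in sgP1, 4.5 ± 0.707 in sgP2 and 7.5 ± 6.36 in sgNC (n = 2 lists each). Each guide minus sgNC gave −3 peaks and the guides differed from each other by 0 (exact permutation p = 1 for all 3, smallest possible 0.333). The value of −3 rested on sgNC replicate 1, and without it each guide exceeded sgNC by 1.5 peaks. No site was in both sgNC lists and neither list of a guide, or the reverse. Over all regions, 9.06% met that rule for sgNC against sgP1, 0.408% for sgP1 against sgNC, 7.27% for sgNC against sgP2 and 0.414% for sgP2 against sgNC. Between the guides, ONECUT2 site 3 was in both sgP1 lists and neither sgP2 list, 1 of 7 sites beside 2.76% of all regions, and 0 sites met the opposite rule (4.39%). Both of its sgP1 peaks had a −log10 q under 8.

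The P1 antibody detected 2 of the 30 sites, beside 6109 of the 78729 regions of the whole series. Both sites were near PDX1 and called only in sgP2 cells. PDX1 site 5 had a fold of 6.09 and 6.06 in the sgP2 lists, and PDX1 site 2 a fold of 5.92 in replicate 1. Their percentiles were 37.6, 31 and 35.7. Both sites were also in all 6 AsPC1 pan-HNF4α lists, and the P1-antibody summits at site 5, at 27953080 and 27953089, lay just below the pan-HNF4α summits at 27953095 to 27953150. In sgNC cells the P1 antibody gave no peak near any of the genes, in lists of only 697 and 260 peaks. The mean number was 1.5 ± 0.707 in sgP2 and 0 in both sgNC lists (n = 2 each, exact permutation p = 0.333). Site 5 was the 1 of 2 sites in both sgP2 lists and neither sgNC list, beside 36.5% of all regions, and 0.0655% of regions met the reverse. With the lists held to 260 peaks neither site remained, and the share of all regions at that length is not given here. Over the 7 comparisons of peak number, every p was 1 after Benjamini-Hochberg adjustment.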

How the data were processed

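HNF4α ChIP-seq was analysed from 18 deposited peak lists, 1 per library, of 32 libraries; the 14 input libraries stayed out. Cells were crosslinked, per the labels' protocols, with disuccinimidyl glutarate and formaldehyde. Per the submitters' processing notes the tools include Bowtie2 2.2.9 and MACS2 2.2.7 and the builds hg38 and mm10, with no role given; the lists were read as hg38. The control for calling and the read depth are not given in the sources used here. In the lists deposited by the authors, fold enrichment is a linear ratio, p and q values are −log10, and an integer score follows the −log10 q. These are the authors' values; they served to order, select and describe the peaks of one list at a time.

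Members, lists and rules were chosen with earlier results of these data known. Every member is named, with its most widely shared site, the sites with a P1-antibody peak and the group-specific sites; the other sites were added after their values were seen. Sites merge peaks of all lists overlapping by at least 1 bp; coordinates are 1-based. Distances use the RefSeq GRCh38.p14 gene table, which gives no strand. Percentiles rank fold enrichment within a list. Group-specific sites are in both lists of one group and neither of the other. Peak numbers were compared by two-sided exact permutation tests in Python 3.11.15 (scipy 1.17.1), with Benjamini-Hochberg adjustment over 7 comparisons. On simulated data, overlap merging was checked against bedtools 2.31.1, the permutation test against scipy, and gene counts against planted peaks and a direct count. The other steps were not tested in this way. Alternatives were windows of 10 and 100 kb, −log10 q of at least 20, lists of equal length, counts per 10000 peaks, other overlap rules, leaving out each replicate and a replicate block; a −log10 q of at least 8, the member as nearest gene, and the rules between lines were added after the data were seen. The motif search at sites was not run, as no genome was used here. Values of some of the other pancreas development genes are not reported here.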

Additional observations from a re-analysis of the deposited data

How the results depend on the processing

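Differences in peak number reversed under some settings, and the cause was not tested. At equal list length they became 1 (sgP1 minus sgNC), 0.5 (sgP2 minus sgNC) and −0.75 (Panc10.05 minus BxPC3). Per 10000 peaks they became −0.123 (BxPC3 P1-α2 minus P2-α8), 0.0305 (sgP1 minus sgNC) and −0.643 (Panc10.05 minus BxPC3). Leaving out 1 list gave −7.5 to 1.5 for sgP1 and for sgP2 minus sgNC, 1.5 without sgNC replicate 1, and −1.5 to 2.5 for Panc10.05 minus BxPC3. The other 78 values did not reverse, those of the 2 comparisons at 0 lying between −2 and 1.5, and none passed 0.05. Correlations of deviations between same-numbered replicates ran from −0.0694 to 0.0674 over 6 comparisons, which gives no sign that they pair the lists. Under a replicate block BxPC3 P1-α2 minus P2-α8 stayed at 9 (exact permutation p = 0.5, the smallest possible) and Panc10.05 minus BxPC3 at 0.5 (p = 0.944).

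The counts of members bound in both lists of a group moved with the window and the threshold. Within 10 kb they were 2 in Panc10.05 P1-α2, 2 in Panc10.05 P2-α8, 2 in BxPC3 P1-α2, 1 in BxPC3 P2-α8 and 0 in sgP2 with the P1 antibody. Within 100 kb they were 8 in Panc10.05 P1-α2, 6 in Panc10.05 P2-α8, 9 in BxPC3 P1-α2, 2 in sgP2 and 3 in sgNC. At a −log10 q of at least 20 the P1 antibody in sgP2 and sgP1 gave 0, and at 8 they gave 0 and 1. At equal length BxPC3 P1-α2 gave 3 and the P1 antibody in sgP2 0. Counting only sites nearest to the member, BxPC3 P2-α8 gave 2 and the P1 antibody in sgP2 0. Leaving out 1 list gave 2 for sgP2 and 1 to 3 for sgNC, 3 without replicate 2. Here and for the group-specific sites, counts that changed by no more than 1.5-fold are mostly not listed. Shares of all genes at these settings are not given here, so the changes are not read as a result about the members.

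Group-specific sites moved similarly. Shares of all regions at these settings, and at those of the rules between lines below, are not given here. The changes are therefore not read as a result about the members. For Panc10.05 P1-α2 the count was 0 within 10 kb, 3 within 100 kb, 0 with the member nearest, 2 with reciprocal overlap of 50%, and 1 to 2 with 1 list left out, 2 without either P1-α2 list or P2-α8 replicate 2. For Panc10.05 P2-α8 it was 1 within 100 kb, 3 at a −log10 q of 20, 2 at equal length, 0.5 with summits within 100 bp, 1 with reciprocal overlap and 0 to 2 with 1 list left out, above 0 without either P1-α2 list or P2-α8 replicate 2. For BxPC3 P1-α2 it was 1 within 10 kb, 7 within 100 kb, 0 at equal length and 4 to 8 with 1 list left out, 8 without P1-α2 replicate 2 and 7 without P2-α8 replicate 2, and for BxPC3 P2-α8 0.5 with reciprocal overlap. Against sgNC, sgP1 had 1 at equal length and 0 to 1 with 1 list left out (1 without sgNC replicate 1), and sgP2 0 to 1 (1 without its replicate 2). For sgNC against sgP1 and against sgP2 it was 1 within 100 kb and 0 to 7 with 1 list left out, 7 without sgNC replicate 2. For sgP1 against sgP2 it was 0 at a −log10 q of 20 or 8, with summits within 100 bp and with reciprocal overlap, and for sgP2 against sgP1 0 to 1 with 1 list left out, 1 without either sgP2 list. For the P1 antibody in sgP2 it was 0 within 10 kb, at a −log10 q of 20 or 8, at equal length and with the member nearest, and 1 to 2 with 1 list left out, 2 without sgP2 replicate 2.

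Of the rules between lines, AsPC1 but not induced gave 1 within 10 kb, 0 at a −log10 q of 20 and 1 with the member nearest, induced but not AsPC1 gave 1, 1 and 1, and Panc10.05 but not BxPC3 gave 1 within 10 kb. The motif search at sites, planned with 2 windows, was not run. Unknown read depth limits every absence: a missing peak is a site not called, not a site shown to be free of HNF4α.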

Other observations

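Some of the most widely shared or strongest peaks around these genes lay between 50 and 100 kb from their spans, and those named here were chosen after their values were seen. A site 92.2 kb from PTF1A, at chr10:23099533-23100621 inside MSRB2, was in 12 of the 18 lists, at percentiles 1.91 to 80.7. It was missing from both BxPC3 P2-α8 lists and from sgP1 replicate 2 among the pan-HNF4α lists, and 1 P1-antibody list held it. A neighbouring site 96.7 kb from PTF1A, also inside MSRB2, was in 9 pan-HNF4α lists at percentiles 46 to 69.8. On the PDX1 side, a site 68.7 kb from the gene at chr13:27850935-27851796, inside the long non-coding RNA gene PLUT and nearest to the protein-coding gene GSX1, was in all 8 induced lists at percentiles 63.1 to 99.8 and in no AsPC1 list. A second PLUT site, 89.8 kb from PDX1 and also nearest to GSX1, was in 8 pan-HNF4α lists, 2 of them of induced lines. A site 61.6 kb from PROX1 inside LINC02775 was in 6 lists, 4 of them of induced lines, and one 83.1 kb from NKX6-1, with CDS1 as its nearest gene, was in 6 lists, 5 of them of induced lines. For PTF1A and PROX1 these outer sites were in more lists than any site within 50 kb.

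Among the 24 other pancreas development genes, GLIS3, whose loss causes neonatal diabetes, had 16 and 18 peaks within 50 kb in Panc10.05 P1-α2, 20 and 20 in P2-α8, 13 and 11 in BxPC3 P1-α2, 3 and 4 in BxPC3 P2-α8 and 0 to 3 in the AsPC1 pan-HNF4α lists. FOXA1, a pioneer factor of endoderm, had a peak in both lists of BxPC3 P1-α2, where 76.6% of all genes had one. No other group had it in both lists, and the same held for INSM1 and PAX6. FOXA2 had 4 and 4 peaks in BxPC3 P1-α2, 1 and 1 in BxPC3 P2-α8 and 0 in every Panc10.05 list. Single lists also held a FOXA1 peak: Panc10.05 P1-α2 replicate 2, Panc10.05 P2-α8 replicate 1, BxPC3 P2-α8 replicate 2 and sgNC replicate 1 with the pan-HNF4α antibody. All of these genes were singled out after their values were seen. A longer span gives a wider window, and the GLIS3 counts were not set against its span or against all genes.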
